A study of Homo sapiens with 12 samples.

Results

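The genes described here are 10 members of the NRF2 pathway, out of 17640 genes listed for HepG2 and 18434 listed for Huh7, of which 15781 are listed for both lines. They are NFE2L2, which encodes the transcription factor NRF2, its inhibitor KEAP1, and the target genes HMOX1, TXNRD1, GCLC, GCLM, SLC7A11, NQO1, SRXN1 and PIR. They were taken by gene symbol, with earlier results of these same counts known. PIR was chosen by its strong fall in Huh7 cells in these same counts, so its values in Huh7, and every comparison that uses them, are given as a description with no test. All 10 members were listed in both lines.

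The libraries were made from HepG2 and Huh7, human lines labelled as hepatocellular carcinoma, 52 h after transfection by the sample labels, while the text of the study also gives a shorter time. In each line 3 libraries came from cells given UBL5 siRNA and 3 from cells given Ctrl-siRNA, a nontarget control, for 12 libraries in 4 groups. UBL5 is a small ubiquitin-like protein that takes part in pre-mRNA splicing. According to the methods of the study a single UBL5 siRNA product was used, so the loss of UBL5 and any other action of that siRNA cannot be told apart. Neither the labels nor the methods say whether the 3 libraries of a group came from separate transfections, and the p-values below measure the spread between libraries, which may be technical.

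NRF2 is made at all times and is handed by KEAP1 to a CUL3 ubiquitin ligase that marks it for destruction. Electrophiles and oxidants modify cysteines of KEAP1, NRF2 then escapes, pairs with a small MAF protein in the nucleus and binds antioxidant response elements (AREs) in genes of glutathione synthesis, thioredoxin recycling, quinone reduction and haem breakdown. In the liver the pathway is known for its part in drug and bile acid detoxification, and it is often mutated in hepatocellular carcinoma. Because control is largely on the NRF2 protein, RNA counts give the RNA of the factor and of its targets, and not the amount of NRF2 in the nucleus.

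Totals were 19469574 to 29744471 counts per library. UBL5 itself was 7.19, 4.48 and 2.97 CPM (read counts scaled to a common library size) with UBL5 siRNA in HepG2, against 62.6, 57.7 and 61.8 CPM with Ctrl-siRNA. In Huh7 it was 6.20, 6.44 and 5.59 CPM with UBL5 siRNA and 67.0, 69.5 and 65.0 CPM with Ctrl-siRNA. The siRNA target was thus lower in all 6 treated libraries (log2 fold change -3.63 in HepG2 and -3.44 in Huh7). All 10 hepatocyte markers were listed in both lines, and their summed level was 54502 to 66238 CPM with UBL5 siRNA and 54578 to 60447 CPM with Ctrl-siRNA in HepG2, and 29225 to 29462 CPM with UBL5 siRNA and 27625 to 29258 CPM with Ctrl-siRNA in Huh7. Of 10 markers of endothelial cells, fibroblasts and leukocytes, 6 were listed in HepG2 and 5 in Huh7, LYZ made up 96.7% to 99.2% of their sum, and VWF, PTPRC, CD3E and CD68 were listed in neither line. That sum was 1040 to 1346 CPM with UBL5 siRNA and 1706 to 2329 CPM with Ctrl-siRNA in HepG2, and 330 to 353 CPM with UBL5 siRNA and 558 to 564 CPM with Ctrl-siRNA in Huh7, and its part in the results was not tested. The other markers of that list were low, since LYZ made up nearly all of the sum, and their log2 changes can rest on few reads. Of these, COL1A1 rose in both lines (log2 1.81 in HepG2 and 1.17 in Huh7). CDH5 rose in HepG2 (5.06 ± 0.87 SE) and PDGFRB in Huh7 (0.79), while PECAM1 fell in HepG2 (-1.01). Of 15 mitochondrially encoded genes, 13 rose in HepG2, where 16.5% of all genes rose, and 9 rose in Huh7, where 34.9% did. One HepG2 Ctrl-siRNA library, replicate 3, had 1773 genes at 0, against 159 to 233 in the other HepG2 libraries. The spread between libraries was larger in HepG2, with a biological coefficient of variation of 0.189, than in Huh7, where it was 0.0663. CPM is a share of the RNA sequenced, so fewer cells and less RNA per cell cannot be told apart.

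The letters NRF2 is known to bind, the ARE core, were looked for near the start sites. Functional AREs of several targets, HMOX1 and NQO1 among them, are known to lie further upstream than these windows reach. The RefSeq table of promoters (GRCh38.p14, 250 bases before to 50 after the start) had 11 windows for 8 of the 10 members, and none for HMOX1 and SLC7A11. The core searched on both strands was TGACNNNGC, which was found in 5 windows of 4 members, KEAP1, GCLM, TXNRD1 and PIR. Of all 35116 windows, 13.3% hold it. The AP-1 letters TGANTCA, which can overlap an ARE core, were found in 7.71% of all windows, and the ATF4 element TTGCATCA in 0.866% of all windows and in none of the member windows. Of 7 matches in all, 1 for each of the 4 members is shown 5′ to 3′ on the strand of the gene, with the core in capitals, because these are the places in the windows where the letters that NRF2 is known to bind occur.
KEAP1 (chr19:10502784-10502812, minus strand): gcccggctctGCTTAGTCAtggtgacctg
GCLM (chr1:93909446-93909474, minus strand): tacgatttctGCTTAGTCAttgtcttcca
TXNRD1 (chr12:104286920-104286948, plus strand): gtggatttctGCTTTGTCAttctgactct
PIR (chrX:15493289-15493317, minus strand): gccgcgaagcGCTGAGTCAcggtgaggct
The 4 shown lie on the reverse strand, and of the other 3 (1 in KEAP1 and 2 in TXNRD1) 1 does too. Those of KEAP1 and GCLM read TGACTAAGC when turned round, so they share the same 9 letters. They lie at -31 to -23 of the downstream KEAP1 start and at -34 to -26 of the GCLM start. The window of the upstream KEAP1 start held no match. The TXNRD1 match shown reads TGACAAAGC at -102 to -94 of its downstream start. That of PIR reads TGACTCAGC, lies after the start at 27 to 35, and overlaps an AP-1 match. A match is a run of letters and no evidence of binding in these cells.

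NFE2L2 (ENSG00000116044, chr2:177218667-177392756, minus strand) rose in both lines. In Huh7 it was 418, 417 and 432 CPM with UBL5 siRNA, against 295, 270 and 289 CPM with Ctrl-siRNA, a fold change of 1.51 (log2 0.59 ± 0.05 SE, adjusted p = 5e-07, edgeR quasi-likelihood test with Benjamini-Hochberg adjustment over all genes, as for every adjusted p below). HepG2 had 406, 442 and 535 CPM with UBL5 siRNA, against 343, 329 and 385 CPM with Ctrl-siRNA (log2 0.38 ± 0.11, adjusted p = 0.0244). The groups did not overlap in either line, but the HepG2 call was lost on leaving out Ctrl-siRNA replicate 1 or 2 or UBL5 siRNA replicate 2 or 3 (adjusted p 0.0521 to 0.0873). By GENCODE 44, 38.4% of its exon bases are shared with HNRNPA3 or ENSG00000213963 on either strand and 13.6% with a gene on its own strand, and the strand setting of the counting is not given in the sources used here.

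KEAP1 (ENSG00000079999, chr19:10486125-10503558, minus strand), the adaptor that presents NRF2 to the ligase, rose slightly in Huh7. There it was 125, 128 and 128 CPM with UBL5 siRNA and 111, 114 and 123 CPM with Ctrl-siRNA (fold change 1.12, log2 0.16 ± 0.05, adjusted p = 0.0165). This call was lost without Ctrl-siRNA replicate 1 (adjusted p = 0.057) or 2 (0.063), and with a spread shared by the 12 libraries (0.191). HepG2 had 93.0, 96.6 and 84.8 CPM with UBL5 siRNA and 103, 101 and 82.7 CPM with Ctrl-siRNA, groups that overlap (log2 -0.07 ± 0.11, adjusted p = 0.683).

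HMOX1 (ENSG00000100292, chr22:35380361-35394214, plus strand), the inducible haem oxygenase, had the largest rise of the members in both lines. In Huh7 it was 87.7, 84.4 and 84.7 CPM with UBL5 siRNA, against 28.8, 32.0 and 31.8 CPM with Ctrl-siRNA, a 2.82-fold rise (log2 1.49 ± 0.06, adjusted p = 3.04e-09). In HepG2 it was 105, 81.3 and 87.4 CPM with UBL5 siRNA, against 43.3, 36.0 and 29 CPM with Ctrl-siRNA, a 2.51-fold rise (log2 1.33 ± 0.16, adjusted p = 0.000502). Every treated library was above every control library, and the call held in all alternatives run. HMOX1 is also known to be repressed by BACH1, which competes with NRF2 for AREs. BACH1 fell in Huh7 to 27.3, 30.1 and 32.5 CPM with UBL5 siRNA, against 52.9, 55.1 and 48.1 CPM with Ctrl-siRNA (log2 -0.77 ± 0.08, adjusted p = 2.69e-06). In HepG2 BACH1 was 44.6, 40.0 and 44.5 CPM with UBL5 siRNA and 51.6, 45.1 and 46.8 CPM with Ctrl-siRNA (log2 -0.16 ± 0.10, adjusted p = 0.259). BACH1 was named after its values were seen, and its part in the change of HMOX1 was not tested.

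TXNRD1 (ENSG00000198431, chr12:104215779-104350307, plus strand), the cytosolic thioredoxin reductase, rose in both lines. In Huh7 it was 562, 572 and 589 CPM with UBL5 siRNA, against 401, 384 and 380 CPM with Ctrl-siRNA (fold change 1.5, log2 0.59 ± 0.04, adjusted p = 2.28e-07). HepG2 had 435, 504 and 583 CPM with UBL5 siRNA, against 346, 339 and 369 CPM with Ctrl-siRNA (fold change 1.44, log2 0.52 ± 0.10, adjusted p = 0.00494). The groups did not overlap in either line and both calls held in all alternatives run.

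The subunits of glutamate-cysteine ligase, which carries out the rate-limiting step of glutathione synthesis, had log2 changes of opposite sign, with that of GCLM in HepG2 short of the threshold. GCLC (ENSG00000001084, chr6:53497341-53616970, minus strand), the catalytic subunit, was 84.4, 91.5 and 91.7 CPM with UBL5 siRNA in Huh7, against 70.7, 72.3 and 65.9 CPM with Ctrl-siRNA (fold change 1.3, log2 0.38 ± 0.05, adjusted p = 5.83e-05). In HepG2 GCLC was 154, 192 and 211 CPM with UBL5 siRNA, against 126, 125 and 145 CPM with Ctrl-siRNA (fold change 1.40, log2 0.48 ± 0.12, adjusted p = 0.0138). All treated libraries lay above all controls in both lines, and the HepG2 call was lost without Ctrl-siRNA replicate 2 (adjusted p = 0.0544) or UBL5 siRNA replicate 2 (0.0516).

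GCLM (ENSG00000023909, chr1:93885199-93909456, minus strand), the modifier subunit that raises the activity of GCLC, went the other way in Huh7. It was 83.3, 88.1 and 93.6 CPM there with UBL5 siRNA, against 127, 109 and 112 CPM with Ctrl-siRNA (log2 -0.37 ± 0.06, adjusted p = 0.000294). In HepG2 it was 39.8, 42.4 and 47.2 CPM with UBL5 siRNA and 51.4, 44.4 and 52.9 CPM with Ctrl-siRNA, groups that overlap (log2 -0.21 ± 0.11, adjusted p = 0.177), so a fall of GCLM there was not shown.

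The ratio of the subunits within a library does not depend on scaling. It was computed after the changes of both genes were seen, and it falls if GCLC alone rises. Counts of GCLM per count of GCLC were 0.986, 0.963 and 1.02 with UBL5 siRNA in Huh7, against 1.80, 1.51 and 1.69 with Ctrl-siRNA. In HepG2 they were 0.258, 0.221 and 0.224 with UBL5 siRNA, against 0.408, 0.357 and 0.364 with Ctrl-siRNA. The means were 0.990 ± 0.030 with UBL5 siRNA and 1.67 ± 0.15 with Ctrl-siRNA in Huh7, and 0.235 ± 0.020 with UBL5 siRNA and 0.376 ± 0.028 with Ctrl-siRNA in HepG2 (SD, n = 3 each). Every treated library was lower than every control in both lines. In Huh7 this follows from the values of the 2 genes, since GCLC and GCLM were each fully separated there in opposite directions. The ratio is thus a description and no p-value is given for it.

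**Figure D1:**
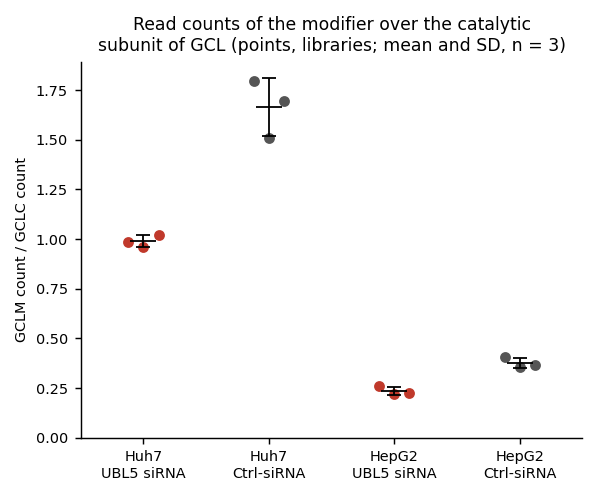
GCLM counts divided by GCLC counts in each library (y axis, ratio from 0), by line and siRNA (x axis), with points for libraries and bars for mean and SD (n = 3). The treated libraries lie below their controls in both lines, at a mean of 0.990 against 1.67 in Huh7 and 0.235 against 0.376 in HepG2.

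SLC7A11 (ENSG00000151012, chr4:138164097-138242349, minus strand), the cystine and glutamate exchanger that feeds glutathione synthesis, fell in Huh7. It was 65.0, 78.4 and 90.0 CPM there with UBL5 siRNA, against 123, 136 and 136 CPM with Ctrl-siRNA (log2 -0.74 ± 0.09, adjusted p = 2.65e-05). In HepG2 it was 50.9, 80.1 and 98.8 CPM with UBL5 siRNA and 109, 97.6 and 128 CPM with Ctrl-siRNA (log2 -0.55 ± 0.21, adjusted p = 0.0721). The HepG2 groups overlap by 1 library on each side, and with the replicate number as a block the adjusted p was 0.024. Over the other alternatives it ran from 0.0128 to 0.167. SLC7A11 is also known as a target of ATF4, the factor of the integrated stress response. Of a list of 14 genes made up of ATF4 itself and its targets, 8 fell (20.1% of all genes did) and 1, DDIT4, rose (16.5% of all genes did) of 13 tested in HepG2, with a median log2 change of -0.55 against 0.01 over all genes. In Huh7 7 fell (36.4% of all genes did) and 3 rose (ATF4, TRIB3 and DDIT4, where 34.9% of all genes did) of 14, with a median of -0.18 against -0.01 over all genes. The part of ATF4 in the change of SLC7A11 was not tested.

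NQO1 (ENSG00000181019, chr16:69706996-69726668, minus strand), a quinone reductase often used as a readout of NRF2, fell in HepG2. It was 516, 499 and 504 CPM with UBL5 siRNA, against 688, 715 and 725 CPM with Ctrl-siRNA (fold change 0.711, log2 -0.49 ± 0.07, adjusted p = 0.000751). The groups are far apart against their spread, and the call held in all alternatives run. In Huh7 NQO1 had only 18, 19 and 18 counts with UBL5 siRNA and 29, 26 and 41 counts with Ctrl-siRNA, which is 0.852, 0.913 and 0.805 CPM against 1.01, 1.14 and 1.99 CPM (log2 -0.63 ± 0.30, adjusted p = 0.0786). At that depth the Huh7 difference rests on few reads, and its adjusted p was 0.0307 without Ctrl-siRNA replicate 1 and 0.361 without Ctrl-siRNA replicate 3. An antisense gene shares 19.4% of the NQO1 exon bases.

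PIR (ENSG00000087842, chrX:15384799-15493564, minus strand) encodes pirin, an iron-binding nuclear protein. In Huh7, the values for which it was chosen, it was 22.0, 22.2 and 20.1 CPM with UBL5 siRNA and 99.6, 101 and 102 CPM with Ctrl-siRNA, a log2 difference of -2.21. HepG2 did not enter that choice. There PIR was 17.9, 13.8 and 16.3 CPM with UBL5 siRNA, against 36.8, 35.3 and 34.2 CPM with Ctrl-siRNA, and it fell to 0.449 of the control level (log2 -1.15 ± 0.13, adjusted p = 0.000333). The HepG2 groups lie far apart and the call held in all alternatives run. With UBL5 siRNA the lines were close, at 21.5 ± 1.1 CPM in Huh7 and 16.0 ± 2.1 CPM in HepG2, whereas with Ctrl-siRNA they were at 101 ± 1.1 and 35.4 ± 1.3 CPM (SD, n = 3 each).

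SRXN1 (ENSG00000271303, chr20:646615-653200, minus strand), which repairs overoxidised peroxiredoxins, was too sparse to test in either line. Its counts were 3, 10 and 1 with UBL5 siRNA and 3, 3 and 21 with Ctrl-siRNA in HepG2, and 2, 1 and 10 with UBL5 siRNA and 1, 2 and 18 with Ctrl-siRNA in Huh7. Of its exon bases, 90.7% are shared with the readthrough gene ENSG00000270299 on the same strand. Counters in common use set aside reads that fit more than 1 gene, and whether this was done here is not given in the sources used here, so the counts are no measure of SRXN1 RNA.

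**Figure D2:**
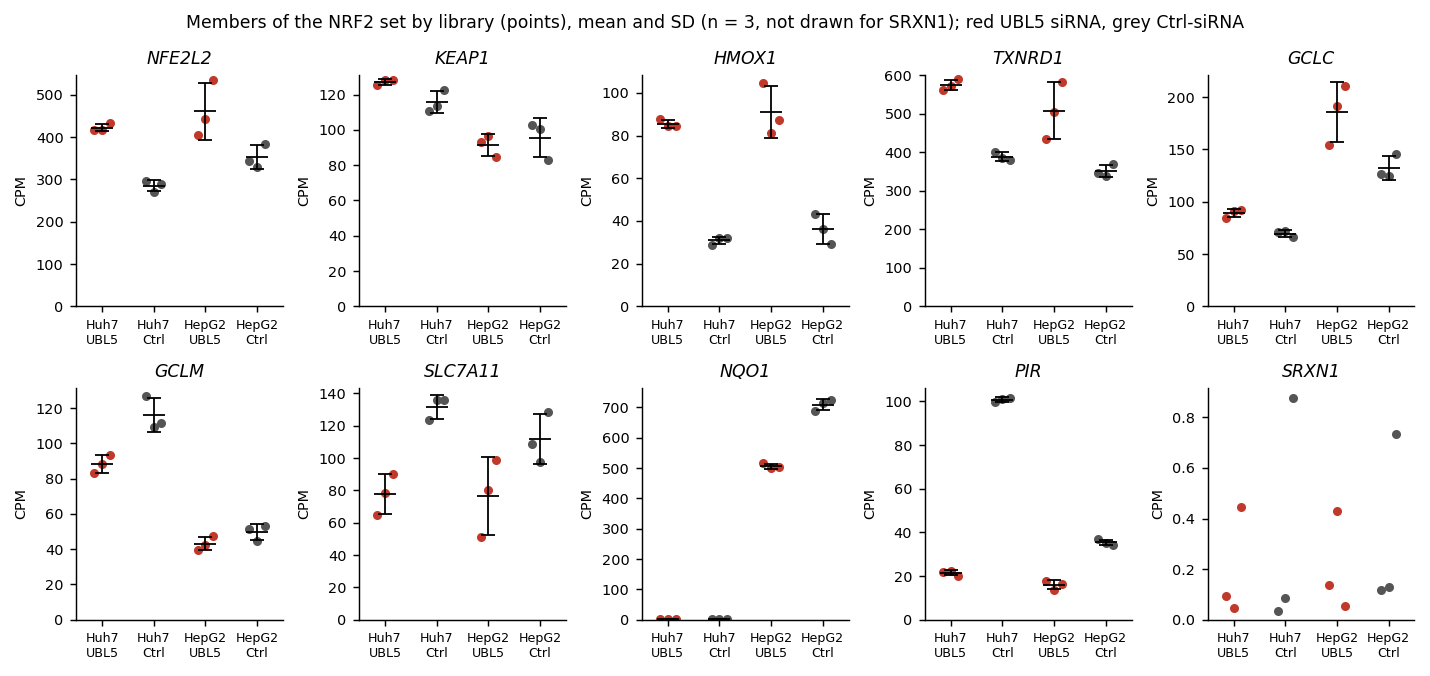
CPM of each of the 10 members (y axes, each from 0) in the 12 libraries, by line and siRNA (x axes), with red (UBL5 siRNA) and grey (Ctrl-siRNA) points for libraries and bars for mean and SD (n = 3, not drawn for SRXN1). HMOX1, TXNRD1, GCLC and NFE2L2 are higher with UBL5 siRNA, PIR is lower in both lines, NQO1 is near 0 in Huh7, and SRXN1 stays below 1 CPM in every library.

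Over the set, 9 members were tested in HepG2. Of these, 4 rose (NFE2L2, HMOX1, GCLC and TXNRD1), where 16.5% of all 15755 genes tested rose, and 2 fell (NQO1 and PIR), where 20.1% of all genes fell. With the replicate block SLC7A11 fell as well, which makes 3. The shares given are from the fit without the block, which called 5780 genes in either direction, against 6431 with it. In Huh7, with PIR left out, 5 of 8 tested members rose (the same 4 and KEAP1), where 34.9% of all 16965 genes rose. The 2 that fell there were GCLM and SLC7A11, where 36.4% of all genes fell. The 3 treated and 3 control libraries did not overlap for 6 of 9 members in HepG2, where 53.1% of all genes did not, and for 8 of 8 in Huh7, where 73.5% did not. The members are few and were chosen with earlier results of these data known. No test was therefore made of these shares against those of all genes. The median log2 change of the members was -0.07 in HepG2 and 0.27 in Huh7, against 0.01 and -0.01 over all genes. The HepG2 median includes PIR and the Huh7 median does not, so they are not to be set against each other. The set did not move in 1 direction: HMOX1, TXNRD1, GCLC and NFE2L2 rose in both lines, while NQO1 and PIR fell in HepG2, and GCLM and SLC7A11 fell in Huh7.

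**Figure D3:**
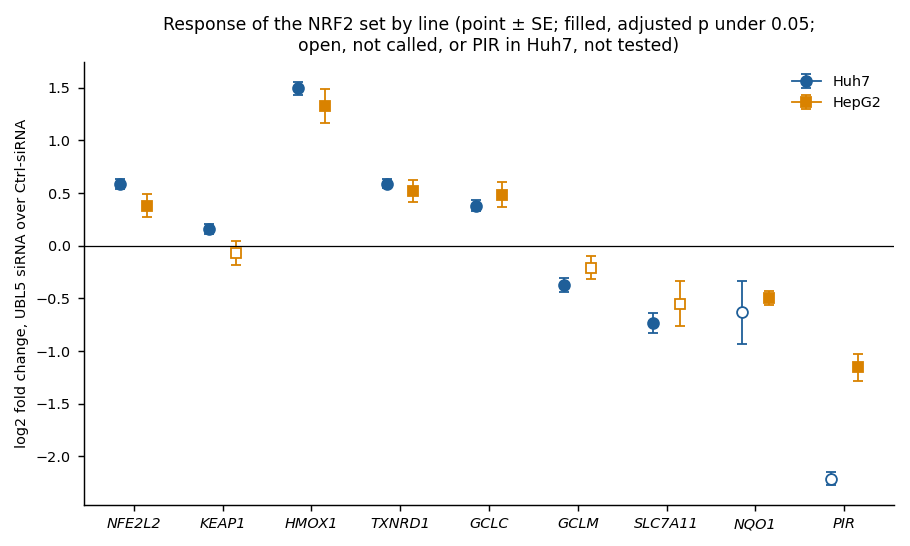
Log2 fold change of UBL5 siRNA over Ctrl-siRNA (y axis) for the 9 members with enough counts (x axis), circles for Huh7 and squares for HepG2, with bars for the standard error. Filled symbols passed an adjusted p of 0.05, open ones did not or, for PIR in Huh7, were not tested, and HMOX1 is highest (1.49 in Huh7, 1.33 in HepG2) and PIR lowest (-2.21 in Huh7, -1.15 in HepG2).

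A model of all 12 libraries asked if HepG2 and Huh7 responded unequally. By the edgeR test 21.5% of 15668 genes did, and 0 of the 9 members other than PIR, with 0 at an unadjusted p under 0.05 and 0 by DESeq2. The 9 include SRXN1, whose counts are too low to bear on this, which leaves 8. The differences, Huh7 minus HepG2, were 0.13 ± 0.18 for HMOX1, 0.04 ± 0.12 for TXNRD1, 0.18 ± 0.13 for NFE2L2, -0.13 ± 0.14 for GCLC, -0.19 ± 0.13 for GCLM and -0.21 ± 0.26 for SLC7A11 on the log2 scale (SE). With errors of this size a difference between the lines as small as these could not have been seen. KEAP1 differed by 0.20 ± 0.12 (adjusted p = 0.276), and without HepG2 Ctrl-siRNA replicate 3 by 0.29 (adjusted p = 0.0402). For PIR the difference was -1.08, given with no test.

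Under Ctrl-siRNA the lines differed in several members. Of 9 members, SRXN1 with its few counts among them, 2 were higher in Huh7, where 32.0% of all genes were, and 3 were lower, where 31.7% of all genes were. NQO1 was 527-fold lower in Huh7 than in HepG2 (log2 -9.04 ± 0.14, adjusted p = 2.63e-14). GCLC was lower in Huh7 (log2 -0.92 ± 0.10, adjusted p = 2.58e-06), and GCLM was higher (log2 1.23 ± 0.09, adjusted p = 4.8e-08). NFE2L2 was lower (log2 -0.31 ± 0.09, adjusted p = 0.00926). KEAP1 was higher (log2 0.28 ± 0.08, adjusted p = 0.00997), and this call was lost without Huh7 Ctrl-siRNA replicate 3 (adjusted p = 0.0578). HMOX1 (log2 -0.22 ± 0.13, adjusted p = 0.144), TXNRD1 (0.14 ± 0.09, 0.158) and SLC7A11 (0.24 ± 0.19, 0.279) did not pass. Without HepG2 Ctrl-siRNA replicate 3 HMOX1 was lower in Huh7 (log2 -0.36, adjusted p = 0.00894).

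Levels can be set beside each other between genes only per length, here CPM per kb of the GENCODE canonical transcript. With Ctrl-siRNA in Huh7 the order was NFE2L2 (116 ± 5.3), TXNRD1 (101 ± 2.9), PIR (79.1 ± 0.84), KEAP1 (45.2 ± 2.4), GCLM (23.8 ± 2.0), HMOX1 (19.9 ± 1.2), GCLC (18.4 ± 0.88), SLC7A11 (13.7 ± 0.76) and NQO1 (0.548 ± 0.211), of which only HMOX1 and GCLC overlap as neighbours (SD, n = 3). In HepG2 with Ctrl-siRNA NQO1 came first (281 ± 7.5), then NFE2L2 (144 ± 12), TXNRD1 (91.1 ± 3.9), KEAP1 (37.2 ± 4.3), GCLC (34.9 ± 3.1), PIR (27.8 ± 1.0), HMOX1 (23.2 ± 4.6), SLC7A11 (11.6 ± 1.6) and GCLM (10.2 ± 0.92). Among these KEAP1 and GCLC, PIR and HMOX1, and SLC7A11 and GCLM do not differ beyond their spread. With UBL5 siRNA HMOX1 reached 55.1 ± 1.2 in Huh7, the third place after NFE2L2 (173 ± 3.6) and TXNRD1 (149 ± 3.5), and 58.6 ± 7.8 in HepG2, the fourth place, where it overlaps GCLC (49.0 ± 7.6).

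**Figure D4:**
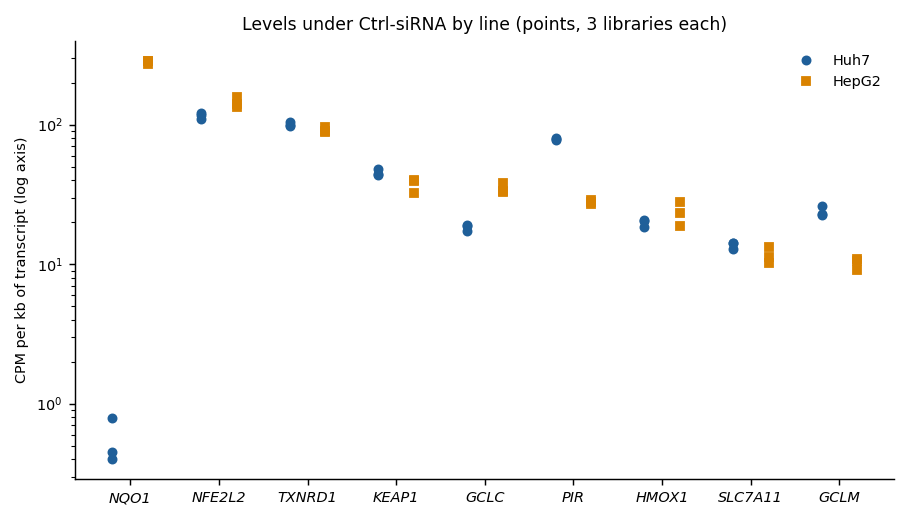
CPM per kb of transcript under Ctrl-siRNA (log y axis) for 9 members (x axis, in their HepG2 order), circles for 3 Huh7 libraries and squares for 3 HepG2 libraries. NQO1 spans from 0.402 to 0.790 in Huh7 against 273 to 288 in HepG2. NFE2L2 spans from 111 to 121 in Huh7 against 135 to 157 in HepG2, and TXNRD1 from 98.4 to 104 against 87.9 to 95.5.

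Beyond the members, 6 lists of the pathway with 95 other genes were examined. The lists were grouped by function and include genes that control NRF2, so not every gene in them is an NRF2 target. In HepG2 21 rose and 21 fell of 92 tested, where 16.5% of all genes rose and 20.1% fell (median log2 change 0.07, against 0.01 over all genes). In Huh7 31 rose and 41 fell of 93 tested, where 34.9% of all genes rose and 36.4% fell (median -0.08, against -0.01). The counts of the single lists below are to be read against the same shares, and no test was made of them. Of the 91 tested in both lines, 15 rose in both, 17 fell in both and 6 were called in opposite directions. The matching shares over all genes were not computed, so nothing particular to the pathway can be read from these counts.

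Among 18 genes that control NRF2, 5 rose and 3 fell of 17 tested in HepG2, and 9 rose and 6 fell of 18 in Huh7. The related factor NFE2L1 rose in HepG2 to 539, 577 and 527 CPM with UBL5 siRNA, against 377, 442 and 419 CPM with Ctrl-siRNA (log2 0.40 ± 0.08, adjusted p = 0.00626), and by log2 0.14 in Huh7 (adjusted p = 0.0257, over the alternatives up to 0.165). The coactivator EP300 rose in Huh7 by log2 0.62 ± 0.05 (adjusted p = 2.99e-07) and in HepG2 by 0.36 ± 0.12 (0.0451, up to 0.13 on leaving out a library). BACH2, a relative of BACH1 listed for Huh7 only, fell there to 5.02, 4.18 and 3.8 CPM with UBL5 siRNA, against 17.5, 20.04 and 18.6 CPM with Ctrl-siRNA (log2 -2.09 ± 0.12, adjusted p = 2.73e-08). PALB2, which binds KEAP1, fell in HepG2 (log2 -0.42 ± 0.09, adjusted p = 0.00831, and 0.0601 without UBL5 siRNA replicate 2) and rose in Huh7 (0.37 ± 0.06, 0.000313). SQSTM1, the autophagy receptor that sequesters KEAP1 and is itself an NRF2 target, was named after its values were seen. It fell in Huh7 to 204, 221 and 254 CPM with UBL5 siRNA, against 373, 379 and 409 CPM with Ctrl-siRNA (log2 -0.75 ± 0.07, adjusted p = 2.8e-06). In HepG2 it fell by 0.52 on the log2 scale (adjusted p = 0.0215), a call lost without replicate 2 of either HepG2 group (up to 0.0706).

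Of 23 glutathione genes, 3 rose and 6 fell in HepG2 (median -0.10), and 9 rose and 9 fell in Huh7 (median 0.04). The glutathione S-transferases went both ways. GSTA1 rose in HepG2 to 91.6, 84.5 and 108 CPM with UBL5 siRNA, against 37.7, 32.5 and 36.2 CPM with Ctrl-siRNA (log2 1.41 ± 0.11, adjusted p = 0.000117), and 4.05-fold in Huh7 (log2 2.02 ± 0.15, adjusted p = 3.52e-07), where its level was only 2.01 to 3.08 CPM with Ctrl-siRNA. GSTK1, a mitochondrial and peroxisomal transferase, fell in Huh7 to 28.7, 31.7 and 30.8 CPM with UBL5 siRNA, against 125, 126 and 117 CPM with Ctrl-siRNA (log2 -1.99 ± 0.06, adjusted p = 4.45e-10), and in HepG2 (-1.52 ± 0.14, 0.000155). GSTA4, which clears lipid aldehydes, fell in Huh7 (log2 -2.85 ± 0.10, adjusted p = 1.59e-09) and in HepG2 (-2.10 ± 0.23, 0.000301). GSTA1 has near-identical paralogs that could share its reads.

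Of 15 thioredoxin and peroxiredoxin genes, 4 rose and 3 fell in HepG2, and 2 rose (TXNL1 and PRDX6) and 8 fell in Huh7. TXNRD2, the mitochondrial reductase, fell in Huh7 to 28.7, 27.7 and 28.2 CPM with UBL5 siRNA, against 45.3, 47.8 and 48.5 CPM with Ctrl-siRNA (log2 -0.72 ± 0.06, adjusted p = 8.39e-07), and in HepG2 to 20.2, 22.7 and 17.9 CPM against 34.2, 36.1 and 31.6 CPM (-0.75 ± 0.13, 0.00256). TXN2, its substrate, fell in Huh7 (log2 -0.56 ± 0.06, adjusted p = 4.94e-06), and in HepG2 (-0.31 ± 0.11, 0.0492) by a call that 7 of 12 alternatives lost. SESN2, a stress-induced sestrin, rose in HepG2 (log2 0.94 ± 0.12, adjusted p = 0.000597) and was 0.13 ± 0.10 in Huh7 (0.256). In Huh7 it was called with the replicate block and without Ctrl-siRNA replicate 3. Its adjusted p there ran from 0.0135 to 0.824 over the alternatives.

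Of the genes of quinone, carbonyl and xenobiotic detoxification, 5 rose and 4 fell of 19 in HepG2, and 6 rose and 10 fell of 18 in Huh7. Some of the aldo-keto reductases, though not all, are known as strong NRF2 targets in human cells. The reductases named here did not move together. AKR1C1 rose in HepG2 to 408, 508 and 647 CPM with UBL5 siRNA, against 267, 354 and 355 CPM with Ctrl-siRNA (log2 0.67 ± 0.17, adjusted p = 0.0135), and fell in Huh7 to 47.6, 44.9 and 46.6 CPM, against 84.4, 92.2 and 94.1 CPM (-0.94 ± 0.06, 7.47e-08). AKR1C2 rose in both, by log2 1.39 ± 0.11 in HepG2 (adjusted p = 0.000113) and 0.53 ± 0.06 in Huh7 (5.33e-06). These paralogs are close in sequence and reads could be shared between them. AKR1A1 fell in both (log2 -1.22 ± 0.05 in Huh7, adjusted p = 2.6e-09, and -1.06 ± 0.13 in HepG2, 0.000512). AKR1B10, named after its values were seen, was low in Huh7 but rose there, with 58, 61 and 66 counts with UBL5 siRNA and 24, 14 and 10 counts with Ctrl-siRNA (log2 2.13 ± 0.22, adjusted p = 3.89e-06). In HepG2 it was 88.8, 110 and 131 CPM with UBL5 siRNA and 131, 154 and 167 CPM with Ctrl-siRNA (log2 -0.46 ± 0.14, adjusted p = 0.0357), a call lost on leaving out any of 4 HepG2 libraries (up to 0.128).

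Genes of NADPH supply split likewise, with 2 up (TKT and RPIA) and 4 down of 9 in HepG2, and 3 up and 4 down of 10 in Huh7. TKT, the transketolase of the pentose phosphate pathway, rose in Huh7 to 632, 625 and 604 CPM with UBL5 siRNA, against 332, 327 and 323 CPM with Ctrl-siRNA (log2 0.95 ± 0.04, adjusted p = 5.43e-09), and in HepG2 (0.62 ± 0.08, 0.000466). RPIA, which isomerises ribose phosphate, rose in both lines (log2 0.55 in Huh7, adjusted p = 3.79e-06, and 0.69 in HepG2, 0.00123). TALDO1, the transaldolase of the same branch, fell in both (log2 -0.79 ± 0.05 in Huh7, adjusted p = 1.38e-07, and -0.50 ± 0.10 in HepG2, 0.00516).

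Of 9 genes of haem and iron, 2 rose (FTL and FECH) and 1 fell (BLVRB) in HepG2, and 2 rose (BLVRA and FECH) and 4 fell in Huh7. BLVRB, biliverdin reductase B, fell in Huh7 to 29.7, 27.1 and 24.2 CPM with UBL5 siRNA, against 123, 139 and 145 CPM with Ctrl-siRNA (log2 -2.31 ± 0.08, adjusted p = 1.77e-09). In HepG2 it fell to 11.3, 11.4 and 10.5 CPM against 19.5, 21.5 and 17.4 CPM (-0.82 ± 0.14, 0.00231). FTL, the ferritin light chain and an NRF2 target, fell in Huh7 (log2 -0.54 ± 0.05, adjusted p = 7.8e-07) and rose in HepG2 (0.38 ± 0.08, 0.00581), a HepG2 call lost with replicates 1 and 2 only (0.0641). SLC48A1, a haem transporter, fell in Huh7 (log2 -1.12 ± 0.08, adjusted p = 1.71e-07) and was 0.51 ± 0.21 in HepG2 (0.0829). FECH, the last enzyme of haem synthesis, was named after its values were seen. It rose by log2 0.32 in Huh7 (adjusted p = 0.000665, and 0.114 with a spread shared by the 12 libraries) and by 0.62 in HepG2 (0.0373, up to 0.123 on leaving out a library).

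A separate list held 8 other antioxidant enzymes, of which PRDX5 also stands in the thioredoxin and peroxiredoxin list. Of these 8, 3 rose and 1 fell in HepG2, with a median of 0.23, where 16.5% of all genes rose and 20.1% fell. In Huh7 6 fell, where 36.4% of all genes did, with a median of -0.39, and the highest log2 change was 0.04 (PARK7).

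**Figure D5:**
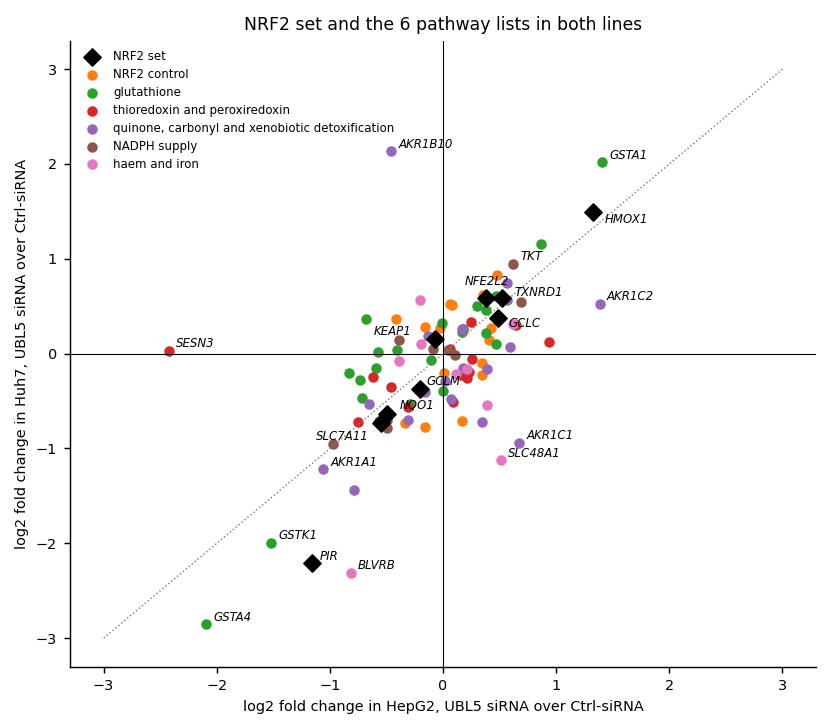
Log2 fold change of UBL5 siRNA over Ctrl-siRNA in Huh7 (y axis) against HepG2 (x axis) for the members (diamonds) and the genes of the 6 pathway lists (circles, coloured by list), with the dotted line at equal response. HMOX1 and GSTA1 lie at the upper right, PIR, GSTK1 and GSTA4 at the lower left, and AKR1B10, AKR1C1 and SLC48A1 off the line.

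The genes whose pattern was most like that of a member were found as those with the smallest root mean square difference in log2 CPM, centred on each gene's mean over the 12 libraries, among 9720 genes with at least 10 CPM on average. For NFE2L2 they were AFF4 (0.063), CDR2 (0.075) and UTP11 (0.078). For HMOX1 they were RNPS1 (0.137), ZFYVE9 (0.15) and ID3 (0.152). For PIR they were SCN9A (0.148), BBS4 (0.167) and GSTK1 (0.180). No other member was among the nearest genes. The member nearest to NFE2L2 was TXNRD1, at 0.198, which was rank 539 in order of likeness. TXNRD1 was also the member nearest to HMOX1, at 0.506 (rank 794), and SLC7A11 that nearest to PIR, at 0.747 (rank 1020). Many genes outside the set were thus closer to each of them. These are descriptions over 12 libraries that share 2 lines and the same siRNAs.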

How the data were processed

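RNA of HepG2 and Huh7 cells was sequenced in 12 libraries (stranded poly-A kit). The authors demultiplexed with bcl2fastq, checked reads with FastQC 0.11.9, aligned to GRCh38 with STAR 2.7.6a and used featureCounts to make the deposited raw counts, with a version, gene models and strandedness that are not given in the sources used here. The deposited tables also hold the authors' own DESeq2 1.30.0 comparison (mean, fold change, error, statistic and p-values), which was not used. Genes without enough reads had been removed by a rule not given, and no listed gene had a total under 11 (HepG2) or 15 (Huh7).

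Counts were analysed with R 4.3.3, edgeR 4.0.16 and DESeq2 1.42.0, and Python 3.11.15, pandas 2.3.3, numpy 2.4.6 and matplotlib 3.10.9. After filterByExpr at a minimum count of 10 and a minimum total of 15, TMM-scaled libraries were tested by the edgeR quasi-likelihood test in each line, 3 libraries against 3, and over the 12 libraries for the difference between the lines and for the lines under Ctrl-siRNA. The threshold was an adjusted p under 0.05 over all genes. CPM values use the scaling of the 12 libraries. Alternatives were RLE size factors, no filter, DESeq2, a replicate block, leaving out each library, a spread shared by the 12 libraries and, chosen after seeing the data, HepG2 replicates 1 and 2 only, since the HepG2 columns of replicate 3 are named in another form.

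The members and lists were chosen with earlier results of these data known. The rule named the members, UBL5 and, from each of 6 pathway lists, the 2 genes of smallest adjusted p in each line. The 3 genes most like NFE2L2, HMOX1 and PIR were also named, with 0.1 added to CPM before the logarithm. Identifiers were matched to GENCODE 44 (99.79% in HepG2, 99.8% in Huh7).

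The labels number the replicates in both groups of a line. Over genes of at least 10 CPM the deviations of same-numbered libraries correlated at 0.409, 0.315 and 0.333 in HepG2, and at 0.439, 0.062 and 0.565 in Huh7. HepG2 numbers were therefore taken as paired and Huh7 numbers were not. The main test has no block in either line, since the methods of the study name none, and calls of named genes that the block changes are stated. Over all genes kept the values were lower, at 0.124, 0.110 and 0.073 in HepG2 and 0.161, 0.016 and 0.212 in Huh7. Libraries of unlike number were there at -0.119 to -0.007 in HepG2 and at -0.188 to 0.032 in Huh7.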

Additional observations from a re-analysis of the deposited data

Results flagged for a closer look

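The following genes were singled out because the test of the difference itself found the response to UBL5 siRNA to differ between the lines. Values are log2 response in Huh7 minus HepG2 from the edgeR quasi-likelihood test over 12 libraries, with the adjusted p. The 9 members tested were not among them, and PIR was not tested.

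Of 19 named genes of the pathway lists that could be tested, 11 differed. These genes had been named for small p-values within a line, so the share is not comparable with the 21.5% of all genes. The response was more negative in Huh7 for SLC48A1 (-1.67, adjusted p = 0.00022), AKR1C1 (-1.64, 0.000155), BLVRB (-1.52, 3.14e-05), FTL (-0.95, 5.92e-05), AKR1C2 (-0.89, 0.000353), SESN2 (-0.84, 0.00257), GSTA4 (-0.79, 0.0489), GSTK1 (-0.50, 0.0224) and TXNL1 (-0.37, 0.0294). It was more positive in Huh7 for PALB2 (0.75, 0.000549) and TKT (0.30, 0.0212). For 7 of the 11 the call held in all 17 alternatives run, and those of GSTK1, GSTA4, TXNL1 and TKT were lost in some (adjusted p up to 0.061, 0.132, 0.0778 and 0.0595). With the replicate block NFE2L1 (adjusted p = 0.0153), GSTA1 (0.0227) and TALDO1 (0.0117) were called as well, and so was SQSTM1 (0.0322), which was named after its values were seen. AKR1C1, FTL and PALB2 were also called in opposite directions in the lines.

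Both AKR1B10 (2.56, 0.000115) and BACH1 (-0.64, 0.00353), named after their values were seen, differed as well.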

How the results depend on the processing

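The spread between HepG2 libraries limits the HepG2 calls, and the counts of NQO1 in Huh7 and of SRXN1 limit theirs. Over the 38 member results, 508 of 546 alternatives were unchanged, 10 lost a call, 11 gained a call and 17 changed sign. The sign changes were all in results that did not pass the test. Unchanged means the same direction and the same side of the threshold. For PIR in Huh7 and between the lines, which had no test, it means only a log2 value within the standard error of the main one. All alternatives of those PIR results (11, 17 and 17) are among the 508. Of 970 alternatives for the other named genes, 881 kept the direction and the side of the threshold, 52 lost a call, 24 gained a call and 13 changed sign.

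On leaving out 1 library, the HepG2 genes called ran from 3819 (without UBL5 siRNA replicate 2) to 7270, against 5780, and the members whose response differed from 0 to 1 (KEAP1). The log2 change of KEAP1 in HepG2 ran from -0.17 to 0.016. Differences between the lines ran from -0.37 to 0.16 for NQO1, -0.019 to 0.27 for HMOX1, -0.064 to 0.15 for TXNRD1, -0.44 to 0.0096 for SLC7A11, -1.43 to 2.30 for SRXN1, -0.083 to 0.54 for UBL5 and -0.079 to 0.089 for TXNRD2, and SRXN1 under Ctrl-siRNA from -2.42 to 1.23. The difference for TXNRD2 was -0.017 with RLE, -0.00074 with no filter, -0.020 with DESeq2 and -0.029 with HepG2 replicates 1 and 2 only, where UBL5 was at -0.095. SRXN1 under Ctrl-siRNA was 0.022 with DESeq2 and 1.22 with HepG2 replicates 1 and 2 only. The cause was not tested.

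With the replicate block 6431 genes were called in HepG2 and 12672 in Huh7. For the members it changed only the HepG2 call of SLC7A11. The Huh7 numbers were not taken as paired.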
